A study of Mus musculus with 6 samples.

Results

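Aurora A is a serine/threonine kinase that drives the assembly of the mitotic spindle, and the 10 genes described here encode the kinase, its activator Tpx2 and proteins that build, bundle, focus or shorten spindle microtubules: Aurka, Tpx2, Fam83d, Psrc1, Nusap1, Aspm, Mapre1, Kif14, Kif2c and Kif18a. They were measured in Melan-a cells, an immortal line of pigmented mouse melanocytes, transfected with siDicer, an siRNA that targets the microRNA-processing enzyme Dicer, or with the control siRNA siScr. All 10 were chosen because their mean array signal was lower with siDicer, so the differences between siDicer and siScr below describe the choice and carry no test. Each gene was read from the probe set whose platform annotation gives its symbol alone, the one of highest mean level where a gene had several; here each gene had 1. They make up 10 of 7486 genes that had such a probe set, among 16383 probe sets in all.

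The 6 arrays formed 2 groups of 3. Both groups were Melan-a cells, from a female of the C57BL/6 strain, grown in medium with 10% fetal bovine serum and 200 nM TPA, a phorbol ester on which these cells depend for growth, and lysed 24 hours after transfection with 50 pmol of siRNA per well. Replicates 1, 2 and 3 of each group came from cells at passages 47, 54 and 56, so that each passage supplied 1 siDicer and 1 siScr array. Passage, culture and replicate number cannot be told apart. All arrays come from this 1 line, which limits how far it stands for melanocytes in skin.

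At mitosis, Tpx2 is released from importins near chromosomes, binds Aurora A, switches it on and carries it to spindle microtubules. Microtubules then grow, are bundled and focused at the poles, and kinesins of several families set their length and align the chromosomes. Transcripts of most of these genes are made mainly late in the cell cycle, while Mapre1 is expressed throughout it. In RNA from whole cultures, fewer cells in division and less RNA per cell cannot be told apart.

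Promoters of many late cell cycle genes hold the CCAAT box, bound by the factor NF-Y, and a cell cycle genes homology region, TTTGAA or TTCGAA. The 250 bases before the annotated start were read for 9 of the 10 genes from RefSeq (GRCm38.p6). Those of Aurka and Fam83d, with the largest siDicer differences among these 9, and of Psrc1 and Mapre1, with the smallest, are shown 5′ to 3′ toward the gene, the motifs of either strand in capitals (CCAAT reads ATTGG and TTTGAA reads TTCAAA when on the other strand; TTCGAA reads the same on both). Aurka lies on the minus strand at chr2:172370571-172370820, Fam83d on the plus strand at chr2:158767849-158768098, Psrc1 (the first of 2 annotated starts) on the plus strand at chr3:108383554-108383803, and Mapre1 on the plus strand at chr2:153741037-153741286.
Aurka: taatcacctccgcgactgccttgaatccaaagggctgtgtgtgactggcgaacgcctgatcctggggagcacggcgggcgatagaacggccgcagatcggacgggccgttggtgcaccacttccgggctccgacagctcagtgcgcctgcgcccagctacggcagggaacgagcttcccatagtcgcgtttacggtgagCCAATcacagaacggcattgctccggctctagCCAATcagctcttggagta
Fam83d: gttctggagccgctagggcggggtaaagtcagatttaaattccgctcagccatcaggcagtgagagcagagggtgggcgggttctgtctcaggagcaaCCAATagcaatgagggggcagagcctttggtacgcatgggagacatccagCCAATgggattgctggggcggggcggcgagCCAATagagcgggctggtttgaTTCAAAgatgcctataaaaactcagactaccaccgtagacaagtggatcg
Psrc1: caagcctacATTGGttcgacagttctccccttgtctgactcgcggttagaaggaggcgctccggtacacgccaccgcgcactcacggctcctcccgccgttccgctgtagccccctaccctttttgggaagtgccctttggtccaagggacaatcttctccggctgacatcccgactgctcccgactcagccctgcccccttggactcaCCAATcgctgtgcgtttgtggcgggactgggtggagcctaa
Mapre1: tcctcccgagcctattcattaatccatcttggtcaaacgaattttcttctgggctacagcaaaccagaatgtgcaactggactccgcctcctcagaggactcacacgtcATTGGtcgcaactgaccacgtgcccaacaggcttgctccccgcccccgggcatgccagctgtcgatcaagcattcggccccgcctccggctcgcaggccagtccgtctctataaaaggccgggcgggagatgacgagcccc

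The Aurka window held 2 CCAAT boxes, at 51 to 47 and 19 to 15 bases before the start. In Fam83d there were 3, at 152 to 148, 102 to 98 and 72 to 68 bases, followed by TTTGAA on the other strand at 50 to 45. Psrc1 had CCAAT at 41 to 37 bases and another on the other strand at 241 to 237, and its second start also had TTCGAA at 30 to 25. Mapre1 had a single CCAAT, on the other strand at 141 to 137. Over the 9 genes, CCAAT was present in 6, against 33.8% of 32851 promoter windows of the same length. At least 2 CCAAT boxes were present in 4 of the 9, against 10.1% of windows. TTTGAA was present in 3, Fam83d, Kif14 and Kif2c, against 16.0%. In Kif14 it lay at 228 to 223 bases, further out than its CCAAT at 92 to 88, and in Kif2c at 103 to 98 on the other strand. Whether the annotated starts are those used in Melan-a cells was not tested. TTCGAA was present in 1, Psrc1, at its second start only, against 1.34%. A gene was counted if any of its starts held the motif, while the shares are per window, so Psrc1 with 2 starts had more sequence read. Neither Nusap1 nor Kif18a held any of these letters in this window. The motifs thus occurred in genes with large and with small siDicer differences, and a match describes the sequence only.

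Signals are log2 values per probe set. Differences are siDicer minus siScr in log2 units unless stated, and levels of different genes are not compared, since probe sets differ in brightness. Because the arrays are paired by passage, values are given in the order of passages 47, 54 and 56, which are replicates 1, 2 and 3. Each of the 10 genes lay above the background gauge of 4.22, the 95th percentile of 426 olfactory and vomeronasal receptor genes, on all 6 arrays, with signals between 5.97 and 9.85.

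Aurka, the kinase itself, read 8.08, 8.47 and 8.55 in siDicer cells and 8.66, 9.04 and 9.08 in siScr cells. Every siDicer array was below every siScr array, though the highest siDicer value lay only 0.11 below the lowest siScr value. The means were 8.37 ± 0.25 and 8.93 ± 0.23 (SD, n = 3 each), a difference of -0.56, or 1.47-fold lower. Within passages the difference was -0.57, -0.57 and -0.52, so that the pairs differed much less from each other (SD 0.03) than the arrays within a group did.

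Tpx2, which activates Aurora A and nucleates microtubules around chromosomes, read 8.86, 9.12 and 9.32 with siDicer and 9.48, 9.61 and 9.85 with siScr. The groups did not overlap. The means were 9.10 ± 0.23 and 9.64 ± 0.19 (SD, n = 3 each), 1.46-fold lower with siDicer, and the pairs differed by -0.62, -0.48 and -0.53.

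Among proteins that bring partners to the spindle, Fam83d, which recruits casein kinase 1 alpha, read 6.99, 7.20 and 7.33 with siDicer and 7.53, 7.73 and 7.84 with siScr. Again the groups did not overlap, and the 3 pairs were nearly equal, at -0.54, -0.53 and -0.52 (mean -0.53 ± 0.01, SD of pairs). This was 1.44-fold lower. Psrc1, also called DDA3, a microtubule protein that recruits the depolymerase Kif2a, read 7.10, 6.99 and 7.37 against 7.20, 7.17 and 7.45. Its groups overlapped, and its difference of -0.12 ± 0.06 (SD of pairs) was smaller than the SD of either group (0.19 and 0.15). Unlike the others, its lowest signals in both groups were at passage 54.

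Nusap1 cross-links spindle microtubules into bundles. It read 7.27, 7.62 and 7.89 with siDicer and 7.74, 7.88 and 8.18 with siScr, and the groups overlapped. The pairs differed by -0.47, -0.27 and -0.29. Aspm holds microtubule minus ends together at the spindle poles, and its loss in people gives a small brain. It read 7.29, 7.69 and 7.98 against 7.88, 7.87 and 8.18, with pair differences of -0.59, -0.18 and -0.20. The passage 47 difference of Aspm was thus 3.16 times the mean of the later pairs, and its groups overlapped. Mapre1, or EB1, rides on growing microtubule plus ends in interphase as well as in mitosis. It read 8.62, 8.70 and 8.75 against 8.79, 8.73 and 8.84, a difference of -0.09 ± 0.07 (SD of pairs) and the smallest of the 10.

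The 3 kinesins differed by similar amounts. Kif14, a motor needed for cytokinesis, read 7.05, 7.35 and 7.63 with siDicer and 7.55, 7.64 and 7.85 with siScr, with pair differences of -0.50, -0.28 and -0.22. Kif2c, or MCAK, takes microtubules apart at their ends and corrects faulty kinetochore attachments. It read 8.13, 8.34 and 8.61 against 8.47, 8.64 and 8.90, and its pairs were close, at -0.34, -0.30 and -0.29. Kif18a, which dampens chromosome movements at the metaphase plate, read 5.97, 6.45 and 6.61 against 6.42, 6.64 and 6.72, and its difference narrowed from -0.45 at passage 47 to -0.19 and -0.11 at the later passages. In all 3 kinesins the groups overlapped, since the passage 56 siDicer array was above the passage 47 siScr array.

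**Figure D1:**
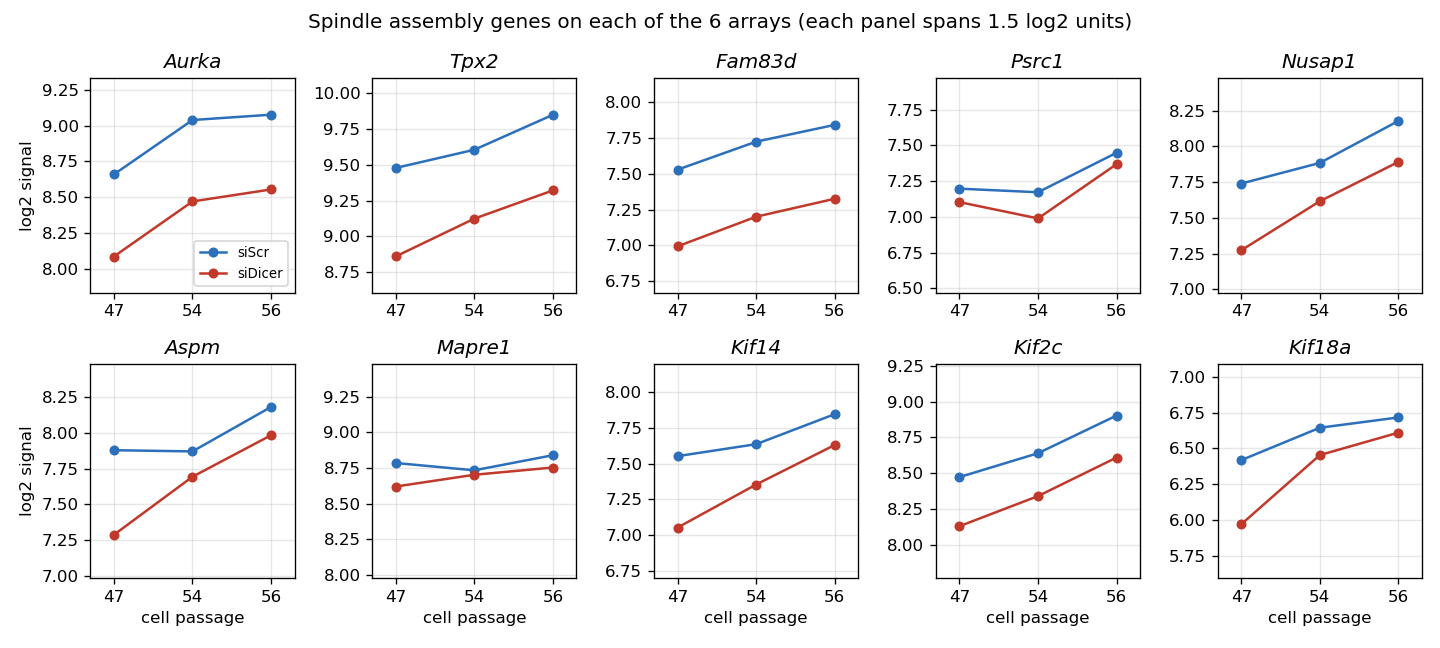
Log2 signal (vertical axis) of each of the 10 genes on the 6 arrays, by passage (horizontal axis), with siDicer and siScr in separate colours and each panel spanning 1.5 log2 units. The siDicer value lies below the siScr value of the same passage in all 10 panels, and most genes in both groups are lowest at passage 47.

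All 10 genes were thus lower with siDicer in each of the 3 passage pairs, as were 22.6% of all probe sets, and in 3 the groups did not overlap (Aurka, Tpx2 and Fam83d), as in 8.29% of all probe sets with siDicer lower. Their median difference was -0.33, against -0.01 over all probe sets. At a Benjamini-Hochberg adjusted p under 0.05 in limma, 0 of the 10 passed without the pairing, where 0.0671% of probe sets passed as lower. With replicate number as a block, Aurka, Tpx2 and Fam83d passed, where 0.238% passed as lower and 0.757% as higher. These counts follow from a contrast on which the genes were chosen, and nothing is read from them.

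The 10 genes differed among themselves in how evenly the pairs moved. The difference at passage 47 was 1.05 times the mean of the later pairs in Aurka, 1.03 times in Fam83d, 1.16 times in Kif2c and 1.22 times in Tpx2. It was larger in Nusap1 (1.68 times), Kif14 (2.01), Mapre1 (2.81), Kif18a (3.02) and Aspm (3.16). In Psrc1 it was smaller, 0.715 times. The median over the 10 genes was -0.48 at passage 47, -0.28 at passage 54 and -0.25 at passage 56. With both passage 47 arrays left out the median was -0.26. It was -0.18 without siDicer replicate 1 and -0.48 without siDicer replicate 3, where the passages of the groups no longer match.

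**Figure D2:**
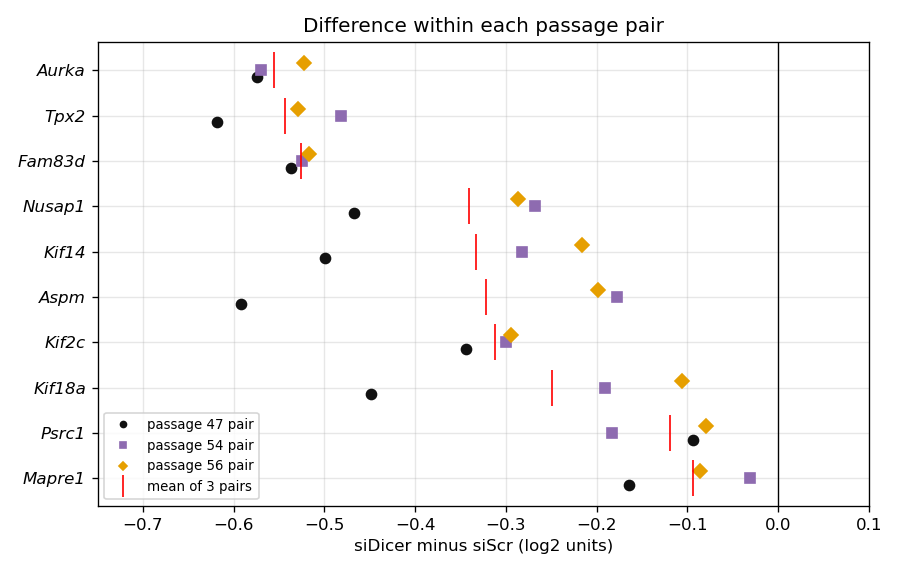
Difference between siDicer and siScr in log2 units (horizontal axis) within each of the 3 passage pairs (symbols) for the 10 genes (vertical axis), with the mean of the pairs as a red bar. The pairs nearly coincide in Aurka, Fam83d and Kif2c, while in Aspm, Kif18a and Kif14 the passage 47 pair stands apart from the later ones.

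The same genes were also compared between passages, a contrast that the rule of choice did not use because each passage holds 1 array of each group. Earlier results of these data were known when the genes were chosen, however. Their signals also went together over the arrays, as given below, so counts of these genes are not counts of separate results. Averaged over both siRNAs, all 10 were lower at passage 47 than at the mean of passages 54 and 56, with a median of -0.32 against 0.01 over all probe sets. Aurka was 0.41 lower, with a difference of -0.41 ± 0.06 (SE, limma with siRNA in the model, 2 arrays per passage, unadjusted p = 0.000267, adjusted p = 0.0643). Kif18a differed by -0.41 (adjusted p = 0.135), Nusap1 by -0.39 (adjusted p = 0.107) and Aspm by -0.35 (adjusted p = 0.21). The values of Kif2c, Kif14, Tpx2 and Fam83d were -0.32, -0.31, -0.31 and -0.26, with adjusted p from 0.108 to 0.176. Psrc1 and Mapre1 were again the smallest, at -0.09 and -0.05 (adjusted p = 0.474 and 0.689). Some of these values rest on single passage 47 arrays. Without siDicer replicate 1, the difference was -0.15 in Aspm, -0.26 in Kif18a and -0.19 in Kif14, and that of Mapre1 was near 0. Without siScr replicate 1 Aspm was at -0.55 and Mapre1 at -0.11.

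None of the 10 passed the adjusted threshold at passage 47 in limma, where 0.287% of probe sets passed as lower. At an unadjusted p under 0.05, 8 of the 10 were lower, against 8.45% of all probe sets, and the other 2 were Psrc1 and Mapre1. The adjusted p of Aurka ran from 0.0215 to 0.235 over 10 alternatives and passed in 3 of them. It passed after each array was centred on its median, in a test of brighter probe sets alone, where Nusap1 and Kif2c passed too, and with an intensity trend, where Kif2c passed. In these 3 settings the calls over all tested probe sets, in either direction, rose as well, from 56 to 76, 153 and 125. After quantile normalization the Mapre1 difference turned to 0.04, so its direction depends on the scaling, while the other 9 stayed below 0, Psrc1 at -0.03. The lowest siScr signals and the highest siDicer signals mostly lay at opposite ends of the passages: siDicer at passage 56 minus siScr at passage 47 was -0.11 in Aurka, -0.16 in Tpx2, -0.20 in Fam83d and -0.03 in Mapre1, and above 0 in the other 6.

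Between the later passages all 10 were lower at passage 54 than at passage 56, by a median difference of -0.23 against 0.01 over all probe sets. No probe set passed there (0% of all, limma; 1602 at an unadjusted p under 0.05, among them 6 of the 10 genes). Psrc1 had the largest value of the 10, -0.33 (adjusted p = 0.185). Aurka differed by -0.06 (adjusted p = 0.813) between passages 54 and 56.

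**Figure D3:**
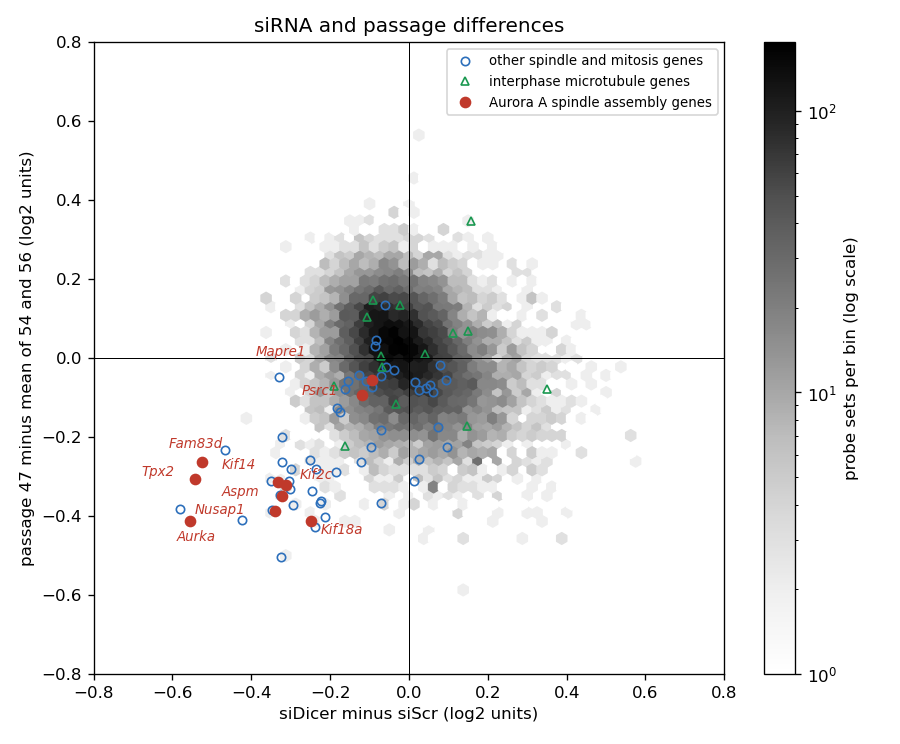
Difference between siDicer and siScr (horizontal axis) against that between passage 47 and the mean of passages 54 and 56 (vertical axis), both in log2 units, with all probe sets as grey bins of number on a log scale and 45 probe sets beyond 0.8 log2 units not shown. The 10 genes (red) lie in the lower left, Mapre1 and Psrc1 nearest to 0; other spindle and mitosis genes are blue circles and interphase microtubule genes green triangles.

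Signals of the 10 genes went together over the arrays. Part of this is built in, since all 10 were chosen as lower on the siDicer arrays, so the values are a description. Across the 6 arrays, which share the passage and siRNA differences above, Pearson's r between members ran from 0.54 to 0.99 over 45 pairs, with a median of 0.91. Psrc1 stood lowest, with no r above 0.81 in its 9 pairs, while the pairs without it began at 0.82. Their mean profile, as deviations from each gene's own mean, was -0.41, -0.15 and 0.06 with siDicer and 0.02, 0.15 and 0.34 with siScr. The profile thus rose from passage 47 to 56 in both groups, and siDicer at passage 47 was the lowest array.

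Outside the 10, the genes whose pattern over the 6 arrays was most like this profile were Nek2, a centrosome kinase (r = 0.999), Ckap2l, a spindle microtubule protein (0.998), the checkpoint kinase Bub1 (0.997) and the condensin subunit Ncaph (0.997). Next came the kinase Melk (0.996), the kinetochore protein Knstrn (0.994), the pocket protein Rbl1 (0.990), Kpna2 (0.990), the chromosomal passenger subunit Cdca8 and the centriole protein Stil (0.985 each). They were taken by r from 1039 genes above the background gauge that varied enough over the arrays, 54 of which had r over 0.9. As the profile holds the siDicer difference used to choose the genes, these values are a description. The Kpna2 probe set is numbered on chromosome 3, while the RefSeq table has the gene on chromosome 11, so its values may not be those of the gene.

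Other genes of the spindle and mitosis apparatus were read from 5 lists grouped by function, of 162 genes, 50 of them measured. Measured means here that the 16383 probe sets read held a probe set with the gene's symbol alone. Nearly all probe sets so named lay on chromosomes 1 to 4. A gene not measured is thus a gene without such a probe set, not a gene without signal. The lists held 34 genes lower with siDicer in all 3 pairs, against 22.6% of all probe sets. The median difference of the 50 was -0.16. Without the pairing 0 of the 50 passed in limma, where 0.0671% of probe sets passed as lower. At an unadjusted p under 0.05 there were 12, against 1667 of 16383 probe sets. With replicate number as a block 2 passed, both lower, Cenpe and Bub1, where 0.238% of probe sets passed as lower. At passage 47 the median of the 50 was -0.23, 47 of the 50 were below the later passages, and 0 passed. At an unadjusted p under 0.05 there were 29, where 8.45% of probe sets were lower. These shares of all probe sets also stand beside the counts of each list below. Only 57.8% of all probe sets had a mean signal above the gauge, while every measured gene of the spindle, cell cycle and interphase lists did.

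The list of kinetochore and checkpoint genes also held the cyclin Ccna2, the Cdk-binding protein Cks1b, the condensin subunits Smc4 and Ncaph and the anaphase-promoting complex subunit Anapc1. It was lower in all 3 pairs in 15 of 15 measured, with a median of -0.25, and 0 passed without the block (5 at an unadjusted p under 0.05). Bub1 read 7.87, 8.23 and 8.46 with siDicer and 8.39, 8.58 and 8.86 with siScr, a difference of -0.42 (limma, adjusted p = 0.439; 0.0449 with the block). Its groups overlapped, with each siDicer array below the siScr array of its passage. Spc25, of the Ndc80 complex, differed by -0.47 (adjusted p = 0.3; with the block 0.0595) and Cdca8 by -0.32 (0.317 and 0.0604). At passage 47 all 15 were below the later passages, with a median of -0.34, close to that of the 10 Aurora A genes, and 0 past the threshold.

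Among the other mitotic motors 3 of 4 measured were lower in all pairs, with a median of -0.14. Cenpe, the kinesin that carries chromosomes to the metaphase plate, read 7.92, 8.44 and 8.49 with siDicer and 8.72, 8.88 and 8.99 with siScr. These groups did not overlap, and the difference was -0.58 ± 0.15 (SE, limma, adjusted p = 0.23; with the block 0.0449). The dynein-linked protein Nudc differed by -0.16 (adjusted p = 0.505) and the centriolar kinesin Kif24 by -0.13 (adjusted p = 0.605).

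Genes that control Aurora A or are controlled with it were lower in all pairs in 4 of 7 measured, with a median of -0.10 and 0 past the threshold with or without the block. The importin alpha Kpna2, which holds Tpx2 until mitosis, differed by -0.30 (limma, adjusted p = 0.485), with the doubt on its probe set given above. Ube2c, the ubiquitin-conjugating enzyme of the anaphase-promoting complex, also differed by -0.30 (adjusted p = 0.509). Ppp6c, the phosphatase subunit that removes the activating phosphate from Aurora A, differed by -0.16 (adjusted p = 0.495).

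Of other proteins that bind spindle microtubules, 5 of 10 measured were lower in all pairs, with a median of -0.08 and 0 past the threshold with or without the block. Ckap2l differed by -0.35 (limma, adjusted p = 0.42), the microtubule destabiliser Stmn1 by -0.25 (0.552) and the cytokinesis regulator Ect2 by -0.21 (0.672). Centrosome and centriole genes were lower in all pairs in 7 of 14, with a median of -0.08 and 0 past the threshold with or without the block. Cep170, of the mother centriole, read 8.46, 8.57 and 8.51 with siDicer against 8.83, 8.88 and 8.81 with siScr, which did not overlap, and its difference was -0.33 ± 0.06 (SE, adjusted p = 0.0972; with the block 0.059). At passage 47 the Cep170 difference was -0.05 (adjusted p = 0.707). Nek2 differed by -0.32 (0.409) and the appendage protein Odf2 by -0.18 (0.459).

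Transcription factors of the cell cycle and proteins that work with them were lower in all pairs in 7 of 9 measured. Their median was -0.10, and 0 passed with or without the block. Rbl1, also called p107, differed by -0.32 (limma, adjusted p = 0.491), Mybl1 by -0.20 (0.65) and Mybl2, or B-Myb, which switches on late cell cycle genes, by -0.15 (0.493). Of microtubule genes of interphase, 7 of 14 were lower in all pairs, against 22.6% of all probe sets. Another 5 were higher in all pairs, a direction for which the share of all probe sets was not computed. With or without the block 0 passed (3 at an unadjusted p under 0.05 without it). The medians were -0.03 for siDicer and 0.01 for passage 47. Kifap3, which links kinesin-2 to cargo, was higher with siDicer in each pair, at 7.69, 7.90 and 7.85 with siDicer against 7.48, 7.53 and 7.38 with siScr. Its difference was 0.35 ± 0.08 (SE, limma, adjusted p = 0.151; with the block 0.0888). The endosome kinesin Kif16b differed by 0.15 (adjusted p = 0.487) and the alpha tubulin Tuba4a by -0.19 (0.487).

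**Figure D4:**
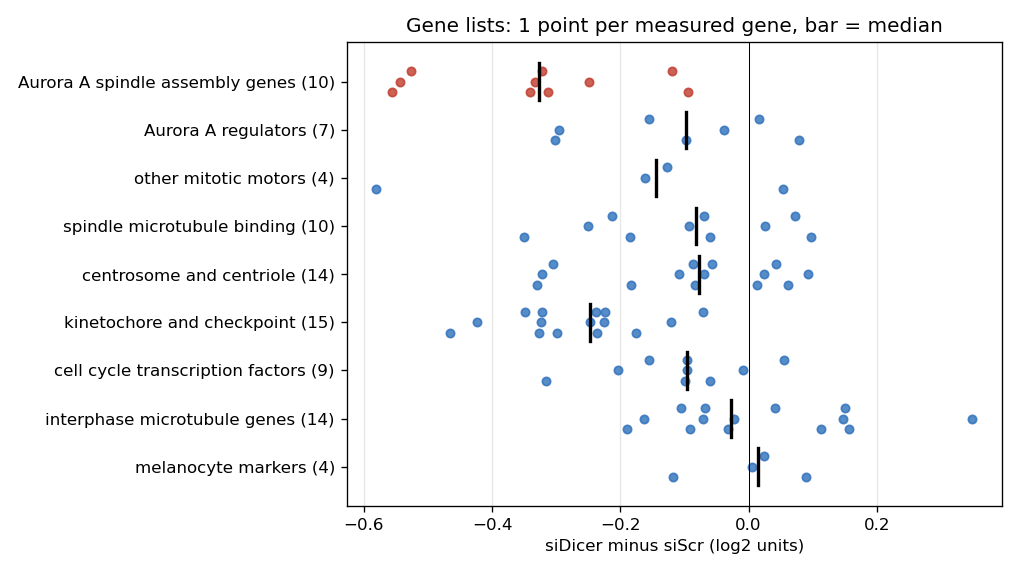
Difference between siDicer and siScr in log2 units for each measured gene (points) in the 10 Aurora A spindle assembly genes and in each list of related genes and of melanocyte markers, with the median of each list marked. All 15 genes of the kinetochore and checkpoint list and all 10 Aurora A spindle assembly genes, which were chosen for it, lie below 0, and each of the other lists has genes on both sides of 0.

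The labelled cell type was checked against melanocyte markers, of which 4 of 14 were measured. Tyrp1, a melanin enzyme, the transcription factor Pax3, the melanosome carrier Mlph and the melanosome exchanger Slc24a5 had mean signals of 12.85, 10.57, 10.27 and 10.66, all far above the gauge, and their median siDicer difference was 0.01. Markers of other cells were summed as linear signals. Immune markers (8 of 12 measured) came to 178 to 188 with siDicer and 199 to 205 with siScr. The defining markers Ptprc and Cd48 and the Fc receptor Fcgr1 lay below the gauge at 2.84, 2.87 and 4.14, while Cd53, Fcer1g, C1qa, C1qb and C1qc lay above it at 4.68, 5.09, 5.38, 4.98 and 4.74. Of these, Fcer1g, C1qa and C1qb were lower with siDicer in all 3 pairs, by differences of -0.25, -0.29 and -0.20 (limma, adjusted p = 0.306, 0.387 and 0.495). Cd53 differed by -0.49 at passage 47 (adjusted p = 0.108), the direction of the 10 genes. Keratinocyte markers (6 of 11 measured, 3 above the gauge) came to 205 to 223 with siDicer and 216 to 232 with siScr. Those above the gauge were Flg, Lor and Tgm3, at 6.81, 5.54 and 4.39. Lor and Tgm3 were lower with siDicer in all 3 pairs, each by a difference of -0.08 (limma, adjusted p = 0.737 and 0.709). None of the 6 was higher in all 3 pairs. Fibroblast markers (5 of 10 measured, 4 above the gauge) came to 289 to 341 and 267 to 313. Col5a1 and Postn, a collagen chain and a matrix protein, were higher with siDicer in all 3 pairs, by 0.19 and 0.25 (adjusted p = 0.586 and 0.639). Prrx1, below the gauge, was lower in all 3 pairs, by a difference of -0.11 (limma, adjusted p = 0.598). Col5a2 and Col3a1 differed by -0.06 and -0.0015, and the median of the 5 fibroblast markers was -0.0015. Postn was also higher at passage 47, by 0.41 (limma, adjusted p = 0.0694), opposite to the 10 genes. The part of these markers in the results above was not tested. Over all probe sets the arrays correlated at 0.994 to 0.997, array medians lay between 4.58 and 4.64, and RNA integrity numbers between 9.7 and 10. Dicer1 was not analysed here, so the groups rest on their labels. The submitters call the arrays biological replicates. Without the block, the p-values for siDicer measure the spread between arrays within a group. No passage had a second array of the same siRNA. The p-values of the passage fit and of the block therefore measure how unevenly the siRNA difference ran over passages. They do not measure the spread between cultures of the same passage.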

How the data were processed

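RNA from 6 Melan-a cultures was hybridised to mouse Clariom D arrays, 100 ng of total RNA each, with the WT PLUS chemistry per the labels' protocols. The authors deposited log2 signals per probe set, for which the submitters' processing notes name Affymetrix Expression Console; its version, background correction, normalization and genome build were not given in the sources used here. Normalization that equalises arrays can hide a shift shared by most transcripts. Of 16383 probe sets, 7530 had 1 gene symbol, 455 several and 8398 none; 230 symbols were updated through Entrez numbers, and 7439 of those with 1 symbol lay on chromosomes 1 to 4, so results for named genes are nearly all about these chromosomes. The gauge of background was the 95th percentile of 426 receptor genes, and 57.8% of probe sets lay above it. Values shared with another row were found in 170 rows, none of a described gene.

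Linear models were fitted to all probe sets in R 4.3.3 with limma 3.58.1 (two-sided moderated tests, Benjamini-Hochberg over all probe sets), tested on simulated data first. The fit of siDicer against siScr had no block. The passage fit had passage and siRNA as factors and 2 residual degrees of freedom per probe set before eBayes. Same-numbered arrays shared a passage per the labels, and their deviations from the group means correlated at 0.44, 0.41 and 0.24, so numbers were taken as pairing the arrays. The members and the lists were chosen with earlier results of these data known. Named genes were the members, the listed genes past the threshold or otherwise up to 3 per list with the smallest p, and the 10 genes most like the member profile; for likeness, a gene's SD over arrays had to be at least 0.5 times that of the profile. Alternatives were the replicate block, quantile normalization, centring, brighter probe sets, an intensity trend, each array left out and both passage 47 arrays left out.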

Additional observations from a re-analysis of the deposited data

How the results depend on the processing

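Every siDicer difference of the 10 genes stayed below 0 in the 13 alternatives that refitted it, the sign for which the genes were chosen. The replicate block, brighter probe sets and the intensity trend cannot change these differences. The block also cannot change them once the passage 47 arrays are left out. Among the single-gene siDicer differences, 30 values moved by more than 1 SD of the pairs. Single-gene passage values were compared by sign and threshold only, not with an SD. The median difference of the 10 genes, -0.33, ran from -0.48 to -0.18 with 1 array left out and was -0.26 without both passage 47 arrays. The passage 47 difference of Mapre1 reversed to 0.0356 after quantile normalization. Passage 47 calls over all tested probe sets rose from 56 to 76 after centring, 153 among brighter probe sets and 125 with an intensity trend. Of the 10 genes, 0 passed at passage 47, but 1 after centring, 3 among brighter probe sets and 2 with an intensity trend. Leaving out 1 array gave 0.

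Probe sets called between siDicer and siScr numbered 35 (1667 at an unadjusted p under 0.05). With the replicate block there were 163, and among brighter probe sets, where fewer were tested, 59. Leaving out 1 array gave 0 to 20: 4 without siDicer replicate 2, 20 without siScr replicate 2, 7 without siScr replicate 1, and 0 without any of the others. Without both passage 47 arrays, an alternative chosen after seeing the data, there were 0, and 157 with the replicate block. Other spindle and mitosis genes called went from 0 to 2 with the replicate block and to 1 with it and without the passage 47 arrays. Passage 47 calls, 56, became 153 among brighter probe sets and 125 with an intensity trend, and 30 to 54 with 1 array left out. Between passages 54 and 56 the count of 0 became 19 after centring, 103 among brighter probe sets, 70 with an intensity trend, and 0 to 114 with 1 array left out, 114 without replicate 1 of either group. Other probe sets of the same gene could not be tried, since each gene had 1. For the other changes the cause was not tested. With 3 arrays per group and 2 per passage, the number of arrays limits the precision.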
